A study of Mus musculus with 12 samples.

Results

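Livers of mice that overexpressed ABHD6 were compared with livers of GFP control mice after a high-fat diet. The count columns of 3 ABHD6-overexpressing livers (ABHD6 OE) and 3 GFP livers were used, 6 of the 12 libraries in the series, and the hepatocyte columns did not enter the comparison. All 6 livers came from C57BL/6 mice kept for 8 weeks on a diet in which fat supplied 60% of the calories. The series text describes the overexpression as a tail vein injection of AAV8-TBG-ABHD6, an adeno-associated virus in which the TBG promoter directs expression to hepatocytes. The labels give the genotype as LABHD6 OE in the overexpressing group and WT in the control group, and call the controls GFP without describing their vector. Sex, age and whether each replicate was a separate animal are not stated in the labels, so p-values measure the spread between these samples. Of the 56748 genes in the table, 13910 had enough counts to be tested.

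ABHD6 is a membrane-bound serine hydrolase that splits monoacylglycerols, among them the endocannabinoid 2-arachidonoylglycerol. The title of the series links hepatic ABHD6 to Akt and FoxO1. In hepatocytes insulin acts through the kinase Akt to keep the transcription factor FoxO1 out of the nucleus, which lowers transcription of the gluconeogenic genes G6pc and Pck1, and insulin also raises the lipogenic and sterol programmes driven by the SREBP factors. Hepatocytes also make most of the acute phase proteins of the blood, such as serum amyloid A and haptoglobin, and they secrete hepcidin, the peptide hormone that lowers iron export from cells.

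Abhd6 and Hamp, which encodes hepcidin, stood apart most clearly between the groups. All 25 genes of the cholesterol synthesis list had a negative log2 fold change. The mean of that list in GFP 1 lay within the range of the overexpressing livers, with GFP 2 and GFP 3 above it. No gene passed an adjusted p under 0.05 in edgeR's quasi-likelihood test with Benjamini-Hochberg adjustment (0 of 13910, 0%). DESeq2 on the same libraries called 10 of the 11190 genes to which it gave an adjusted p (0.0894%), 4 higher and 6 lower. In edgeR 126 genes were higher at an unadjusted p under 0.05 (0.906%) and 175 were lower (1.26%). In 448 genes (3.22%) all 3 overexpressing livers lay above all 3 GFP livers, and in 491 genes (3.53%) all 3 lay below. These shares are the background for the counts of each gene group.

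The libraries held between 13303141 and 16234658 counts. The biological coefficient of variation between replicates was 28.1%, and livers GFP 3 and ABHD6 OE 1 differed from the other 4 along the first principal component, which held 54.2% of the variance over the 13910 genes. Their positions on it were 64.4 and 34.7, while the other 4 livers lay between -36.0 and -5.01. GFP 3 correlated more closely with ABHD6 OE 1 (Pearson r = 0.976 in log2 CPM, counts scaled to library size, over 13910 genes) than with GFP 1 (r = 0.943) or GFP 2 (r = 0.933). Without these 2 livers the coefficient was 19.0%, and 1 of 14037 genes was called by edgeR (0.00712%) and 47 of 12563 by DESeq2 (0.374%). Values without these 2 livers are given beside the results they moved most, and the other alternatives are in the closing section. The hepatocyte markers Alb, Apoa1, Ttr, Cps1 and Cyp2e1 were abundant in every library, although Alb took 4.88% of the counts in GFP 3 and 3.83% in ABHD6 OE 1 against 7.54% to 8.68% in the other 4 livers.

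Promoter sequences of the genes on which the comparison turns are shown first, as stretches from 250 bases before to 50 bases after the annotated start in RefSeq, build GRCm38.p6. Hamp is shown because it had the smallest p of all genes. Its promoter (chr7:30943980-30944279, minus strand) holds a GGCGCC word 109 bases before the start, of the type through which bone morphogenetic proteins act, and a TTCTTGGAA word 97 bases before it, of the type bound by STAT3. Both words are in capitals.
Hamp: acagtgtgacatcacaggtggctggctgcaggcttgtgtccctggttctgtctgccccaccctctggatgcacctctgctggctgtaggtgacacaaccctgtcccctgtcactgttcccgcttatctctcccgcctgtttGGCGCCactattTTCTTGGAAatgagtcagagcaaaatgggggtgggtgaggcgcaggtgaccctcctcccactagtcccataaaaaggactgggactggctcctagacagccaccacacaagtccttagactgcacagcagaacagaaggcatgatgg
Searched on both strands, TTCTTGGAA occurs in 0.417% and GGCGCC in 11.9% of 32851 promoter windows of the same length. The 2 words do not overlap each other.

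Hmgcs1 and Mvd are shown as the sterol pathway genes that DESeq2 called. The Hmgcs1 window (chr13:119690101-119690400, plus strand) holds TCACCCCAC 137 bases before the start, a match to the SREBP-type word TCACNCCAC, and 4 CCAAT boxes read on the minus strand as ATTGG. The Mvd window (chr8:122443373-122443672, minus strand) holds 2 CCAAT boxes and no match to TCACNCCAC. Capitals mark these words.
Hmgcs1: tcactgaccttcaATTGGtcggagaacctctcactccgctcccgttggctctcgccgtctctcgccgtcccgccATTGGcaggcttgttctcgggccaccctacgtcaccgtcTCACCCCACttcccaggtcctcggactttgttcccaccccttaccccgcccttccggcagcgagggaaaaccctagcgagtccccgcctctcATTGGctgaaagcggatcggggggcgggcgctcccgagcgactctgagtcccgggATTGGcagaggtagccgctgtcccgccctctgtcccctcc
Mvd: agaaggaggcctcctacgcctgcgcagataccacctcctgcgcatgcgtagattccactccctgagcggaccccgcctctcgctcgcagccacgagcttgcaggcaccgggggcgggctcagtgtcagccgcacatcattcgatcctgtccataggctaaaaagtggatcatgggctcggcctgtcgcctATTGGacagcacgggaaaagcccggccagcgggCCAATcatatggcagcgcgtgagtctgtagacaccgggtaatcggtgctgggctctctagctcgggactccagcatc
TCACNCCAC occurs in 1.24% and CCAAT in 37.4% of the 32851 windows. A window was found for 17 of the 25 sterol genes described below, and 1 of them, Hmgcs1, held TCACNCCAC (5.88%, against 1.44% of 27025 genes with a window).

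G6pc is shown as a gluconeogenic target of FoxO1, with the word CAAAACA of insulin-responsive elements, read on the minus strand as TGTTTTG, in capitals 174 bases before the start (chr11:101367466-101367765, plus strand).
G6pc: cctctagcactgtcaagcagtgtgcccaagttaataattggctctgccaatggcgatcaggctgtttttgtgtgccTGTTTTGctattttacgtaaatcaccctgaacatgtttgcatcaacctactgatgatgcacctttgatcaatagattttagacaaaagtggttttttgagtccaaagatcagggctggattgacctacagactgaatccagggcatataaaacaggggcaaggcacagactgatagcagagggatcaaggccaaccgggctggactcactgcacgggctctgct
CAAAACA occurs in 6.28% of the 32851 windows. It was not found in the window of Pck1.

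Abhd6 (ENSMUSG00000025277, chr14:14413010-14466871 in build mm39, minus strand) checks the labels. It stood at 43.9, 38.9 and 24.5 CPM in GFP livers 1 to 3, and at 183, 104 and 154 CPM in ABHD6 OE livers 1 to 3. All overexpressing livers lay above all GFP livers, and GFP 3 was the lowest of the 6. The means were 147 ± 40.2 CPM and 35.7 ± 10.1 CPM (SD, n = 3 each), a 4.12-fold difference with a log2 fold change of 2.04 ± 0.28 (SE). The unadjusted p in edgeR was 0.00015 and the adjusted p 1.00, and DESeq2 gave an adjusted p of 3.44e-09. Without GFP 3 and ABHD6 OE 1 the log2 fold change was 1.65. Counts per gene do not separate transcripts of the vector from those of the mouse gene.

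Hamp (ENSMUSG00000050440, chr7:30641793-30643457 in mm39, minus strand) was 2.73-fold higher in the overexpressing livers. It stood at 165, 189.6 and 215 CPM in GFP livers 1 to 3 and at 504, 534 and 518 CPM in ABHD6 OE livers 1 to 3. The overexpressing livers lay within a narrow band, far above the GFP livers, and neither GFP 3 nor ABHD6 OE 1 departed from its group. The log2 fold change was 1.45 ± 0.16 (SE, n = 3 each), with an adjusted p of 0.452 in edgeR and 4.30e-16 in DESeq2. Without GFP 3 and ABHD6 OE 1 it was 1.57, with an adjusted p of 3.00e-17 in DESeq2 and 0.0927 in edgeR.

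**Figure D1:**
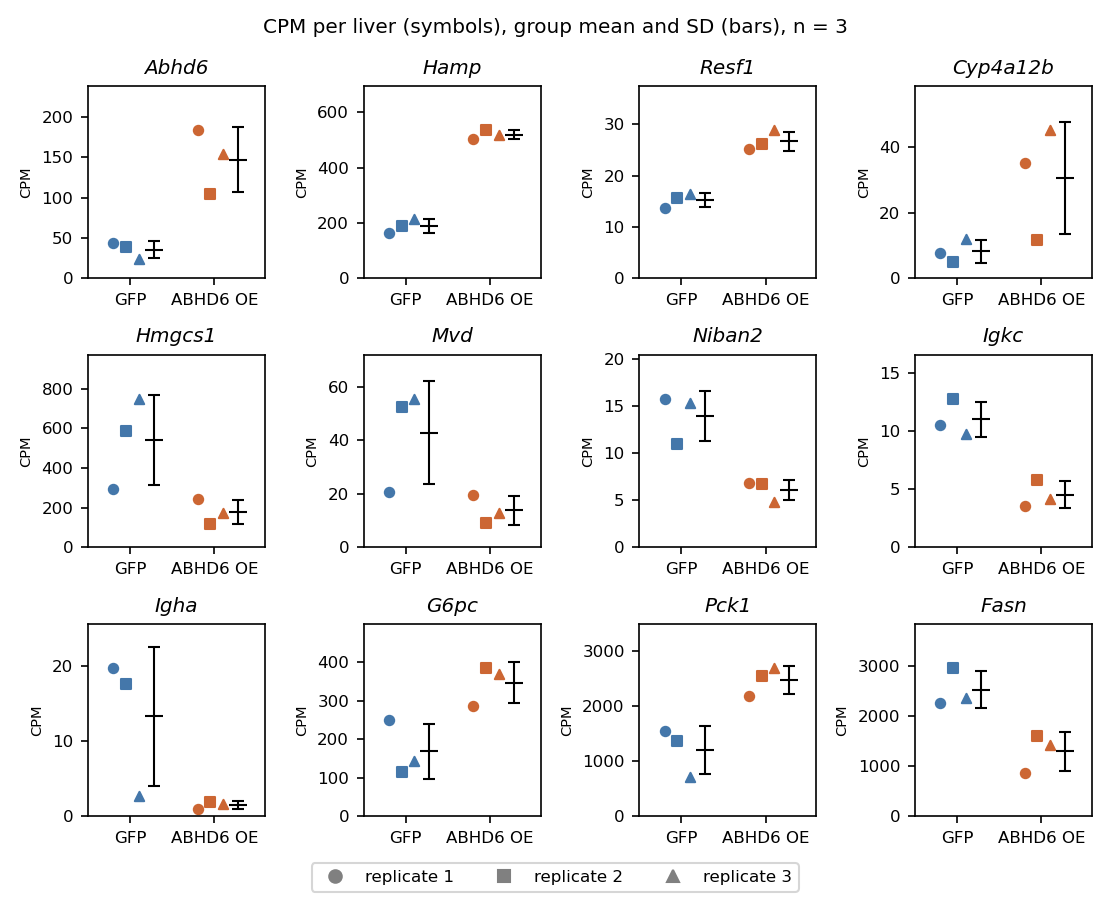
CPM of 12 genes (vertical axes, each from 0) in GFP and ABHD6 OE livers, with circles, squares and triangles for replicates 1, 2 and 3 and bars for the group mean and SD (n = 3). Abhd6 and Hamp are separated between groups, Hmgcs1 and Mvd are lower in the overexpressing livers with a wide spread among GFP livers, and Igha is low in GFP 3 as well as in the overexpressing livers.

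**Figure D2:**
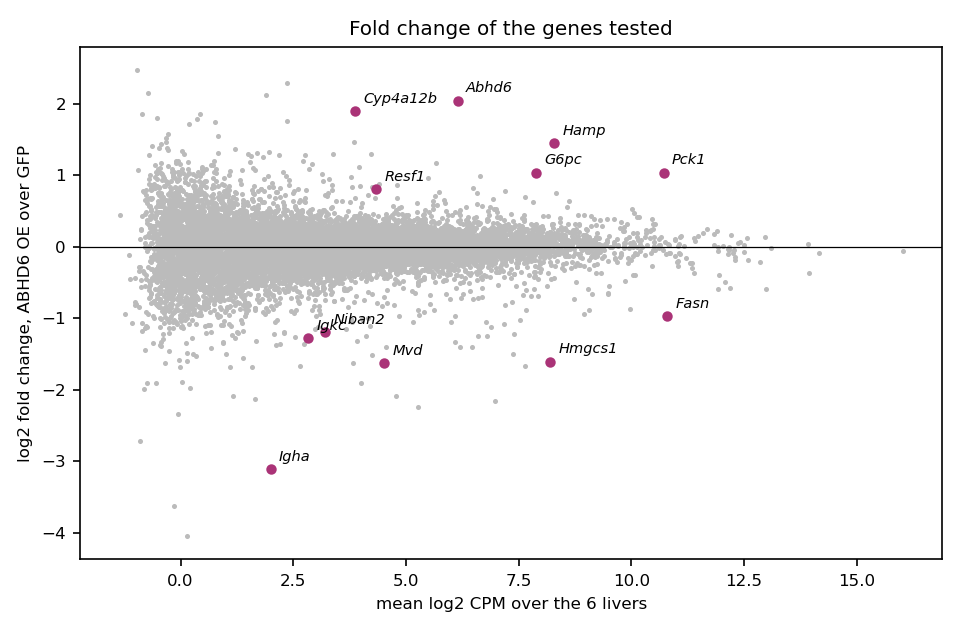
Log2 fold change of ABHD6 OE over GFP (vertical axis) against mean log2 CPM over the 6 livers (horizontal axis), with 1 point for each of the 13910 genes tested and 12 genes named. The median of all genes was -0.01, and Abhd6 at 2.04 and Hamp at 1.45 lie above most genes of their abundance.

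Among 29 tested genes of iron handling, Hamp was the only gene above every GFP liver (3.45%, background 3.22%). It was also the only gene of the list higher at an unadjusted p under 0.05 in edgeR. The list had a median log2 fold change of 0.05, against -0.01 over all 13910 genes, with 17 genes positive and 12 negative. Tfrc, the transferrin receptor, stood at 35.3, 36.4 and 18.8 CPM in GFP livers and at 18.3, 18.5 and 22.9 CPM in ABHD6 OE livers. GFP 3 lay among the overexpressing livers, so the groups overlapped (log2 fold change -0.60 ± 0.25, unadjusted p = 0.0494, edgeR, not called). Leaving out GFP 3 and ABHD6 OE 1 gave -0.79, which was not called by DESeq2 (adjusted p = 0.13). Among the regulators of Hamp, Bmp6, the endothelial ligand of the pathway, had a log2 fold change of 0.67 ± 0.35 (unadjusted p = 0.0928, edgeR). Hjv, its hepatocyte co-receptor, had -0.29 ± 0.14 (unadjusted p = 0.0831, edgeR), and Smad4, the shared signal transducer, 0.27 ± 0.13 (unadjusted p = 0.0858, edgeR). None of these 3 was called, and the groups overlapped for each. Id1 and Smad7, other targets of the same signal, had log2 fold changes of 0.18 and -0.08, and were named after their values were seen.

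All 25 genes of the cholesterol synthesis list had a negative log2 fold change, with a median of -0.96 against -0.01 over all genes tested. Of these, 15 were lower at an unadjusted p under 0.05 in edgeR (background 1.26%) and 8 lay below every GFP liver (32.0%, background 3.53%), while none passed the adjusted threshold in edgeR. Hmgcs1, which makes HMG-CoA for the mevalonate pathway, stood at 296, 586 and 746 CPM in GFP livers and at 244, 119 and 172 CPM in ABHD6 OE livers. The groups did not overlap, but GFP 1 was close to ABHD6 OE 1. The log2 fold change was -1.60 ± 0.39, with an adjusted p of 0.014 in DESeq2 and 1.00 in edgeR.

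Mvd, which forms isopentenyl diphosphate, stood at 20.6, 52.5 and 55.2 CPM in GFP livers and at 19.6, 9.06 and 12.8 CPM in ABHD6 OE livers. Here too GFP 1 lay just above ABHD6 OE 1 and the other livers were well apart (log2 fold change -1.63 ± 0.42, adjusted p = 0.048 in DESeq2). Fdps, which joins isoprenoid units into farnesyl diphosphate, stood at 12.4, 39.7 and 27.1 CPM in GFP livers and at 11.4, 6.96 and 7.34 CPM in ABHD6 OE livers. Its pattern was that of Mvd, with a log2 fold change of -1.62 ± 0.42 (unadjusted p = 0.00588, edgeR, not called). Acat2, the cytosolic thiolase that feeds the pathway, had a log2 fold change of -0.73 ± 0.21 (unadjusted p = 0.011, edgeR, not called) without overlap.

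The sterol list differed among livers of the same group. Centred on the 6 livers, its mean log2 CPM came to -0.25, 0.75 and 0.88 in GFP livers 1 to 3 and -0.17, -0.92 and -0.29 in ABHD6 OE livers 1 to 3. GFP 1 lay within the range of the overexpressing livers, and ABHD6 OE 2 was the lowest. The means of the acute phase genes were -0.59, -0.78 and 1.68 in GFP livers and 0.88, -0.48 and -0.71 in ABHD6 OE livers. GFP 3 was the highest liver on both lists, and ABHD6 OE 1 the highest overexpressing liver on both. GFP 2 was high on the sterol list and lowest on the acute phase list. A link between the lists was not tested. Without GFP 3 and ABHD6 OE 1 the median of the sterol list was -0.85. Of the sterol genes, Mvd was called by DESeq2 on the remaining 4 livers (log2 fold change -1.74, adjusted p = 0.0014) and Hmgcs1 was not (-1.60, adjusted p = 0.41). On these livers edgeR called neither (adjusted p = 0.81 for Mvd and 0.63 for Hmgcs1).

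**Figure D3:**
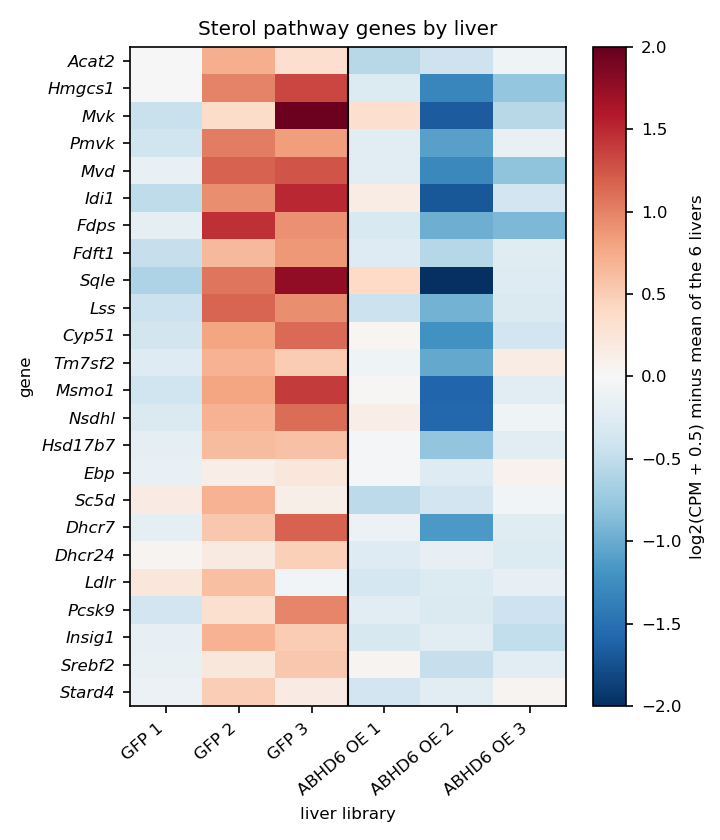
Sterol genes, 24 of the cholesterol synthesis list (rows), in the 6 livers (columns), as log2(CPM + 0.5) minus the mean of the 6 livers, red for higher and blue for lower. GFP 2 and GFP 3 are red over most of the list, ABHD6 OE 2 is the bluest, and GFP 1 resembles ABHD6 OE 1 and 3.

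Of 20 lipogenesis genes, 16 had a negative log2 fold change, with a median of -0.57 (-0.48 without GFP 3 and ABHD6 OE 1). None was called in edgeR, and 2 were lower at an unadjusted p under 0.05 without overlap (10%, background 3.53%). The list means were 0.45, 0.61 and -0.34 in GFP livers and -0.96, 0.05 and 0.18 in ABHD6 OE livers, so GFP 3 lay below ABHD6 OE 2 and 3. Fasn, the fatty acid synthase, stood at 2270, 2951 and 2365 CPM in GFP livers and at 856, 1599 and 1429 CPM in ABHD6 OE livers. The overexpressing livers all lay below the GFP livers, ABHD6 OE 1 lowest (log2 fold change -0.97 ± 0.29, adjusted p = 0.12 in DESeq2 and 1.00 in edgeR). Acly, which supplies cytosolic acetyl-CoA, stood at 708, 968 and 560.1 CPM in GFP livers and at 255, 429 and 526 CPM in ABHD6 OE livers. GFP 3 and ABHD6 OE 3 were close to each other, and the log2 fold change was -0.89 ± 0.32 (unadjusted p = 0.0271, edgeR, not called). Without GFP 3 and ABHD6 OE 1, DESeq2 called Fasn (-0.79, adjusted p = 0.0063), Acly (-0.81, adjusted p = 0.014), Gpam, which starts triglyceride assembly (-0.73, adjusted p = 0.0058), and Pnpla3, a lipid droplet protein (-1.38, adjusted p = 0.038). On the same livers edgeR called none of them (adjusted p = 0.81 for Fasn and Acly, 0.74 for Gpam and 0.42 for Pnpla3). Over all 6 livers the groups overlapped for Gpam (-0.66 ± 0.39) and Pnpla3 (-1.36 ± 0.67), and neither was called.

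Srebf1, which encodes the SREBP-1 factor of lipogenesis, had a log2 fold change of 0.02 ± 0.17, and was named after its values were seen. Scd1, the stearoyl-CoA desaturase, stood at 22299, 22227 and 2705 CPM in GFP livers and at 1006, 18470 and 11856 CPM in ABHD6 OE livers. It was low in GFP 3 and ABHD6 OE 1 rather than by group, and was also named after its values were seen. Pgd, an enzyme of the pentose phosphate pathway that makes NADPH, stood at 82.0, 82.9 and 59.6 CPM in GFP livers and at 37.0, 55.5 and 50.2 CPM in ABHD6 OE livers. The groups did not overlap, with a log2 fold change of -0.65 ± 0.19 (unadjusted p = 0.0114, edgeR, not called). Hlcs, which attaches biotin to the carboxylases, stood at 24.0, 28.6 and 34.7 CPM against 15.8, 18.7 and 19.0 CPM and did not overlap between groups (log2 fold change -0.71 ± 0.16, unadjusted p = 0.00308, edgeR, not called).

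The gluconeogenic enzymes G6pc and Pck1 were each 2.05-fold higher in the overexpressing livers. G6pc, the glucose-6-phosphatase, stood at 249.8, 114 and 143 CPM in GFP livers and at 287, 384 and 370.1 CPM in ABHD6 OE livers. GFP 1 came closest to the overexpressing livers (log2 fold change 1.04 ± 0.30, unadjusted p = 0.0104, edgeR, adjusted p = 0.25 in DESeq2). Pck1, the phosphoenolpyruvate carboxykinase, stood at 1549, 1358 and 711 CPM in GFP livers and at 2187, 2552 and 2682 CPM in ABHD6 OE livers. GFP 3 was the lowest, and the groups did not overlap (log2 fold change 1.04 ± 0.32, unadjusted p = 0.0129, edgeR, adjusted p = 0.16 in DESeq2). DESeq2 called Pck1 without GFP 3 and ABHD6 OE 1 (0.85, adjusted p = 8.72e-05) and did not call G6pc (1.06, adjusted p = 1.00). On the same livers edgeR did not call Pck1 (adjusted p = 0.63).

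Over the 17 tested gluconeogenesis genes, 13 were positive with a median log2 fold change of 0.12, and 4 lay above every GFP liver (23.5%, background 3.22%). Besides G6pc and Pck1 these were Tat, a tyrosine aminotransferase (0.52 ± 0.23, unadjusted p = 0.0535, edgeR), and Got1, an aspartate aminotransferase (0.28 ± 0.14, unadjusted p = 0.0788, edgeR). Neither was called.

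None of the genes of insulin signalling was called by edgeR. Of 32 genes in the insulin, Akt and FoxO1 list, 19 were positive and 13 negative, with a median of 0.05. In this list 1 gene lay above every GFP liver and 1 below (3.125% each, background 3.22% and 3.53%). At an unadjusted p under 0.05 in edgeR, 1 gene was higher (background 0.906%). That gene was Irs2, the insulin receptor substrate, at 22.3, 18.9 and 18.1 CPM in GFP livers and 24.3, 31.0 and 22.4 CPM in ABHD6 OE livers. GFP 1 nearly reached ABHD6 OE 3 (log2 fold change 0.39 ± 0.16, unadjusted p = 0.0424, edgeR, not called). Foxo1 stood at 48.8, 53.8 and 45.4 CPM in GFP livers and at 50.3, 45.1 and 67.8 CPM in ABHD6 OE livers, with overlap and a log2 fold change of 0.14 ± 0.17.

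Akt1 stood at 46.8, 43.6 and 89.0 CPM in GFP livers and at 64.6, 52.5 and 46.0 CPM in ABHD6 OE livers. It was highest in GFP 3, and its log2 fold change of -0.14 ± 0.29 turned to 0.13 without GFP 3 and ABHD6 OE 1. Akt2 had a log2 fold change of -0.08 ± 0.16, which turned to 0.02 without them. Igfbp1, a secreted target of FoxO1, stood at 27.6, 29.1 and 11.8 CPM in GFP livers and at 21.6, 74.8 and 28.3 CPM in ABHD6 OE livers. It was high in ABHD6 OE 2 alone, and was named after its values were seen. RNA levels do not report the phosphorylation of Akt or the place of FoxO1 in the cell.

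Of the 17 tested genes of monoacylglycerol and endocannabinoid metabolism, 13 were positive, with a median of 0.08, and 3 lay above every GFP liver (17.6%, background 3.22%). Abhd6 was among the 3, and as the overexpressed gene its place there was set by the design. Gde1, a phosphodiesterase that forms N-acylethanolamines, had a log2 fold change of 0.32 ± 0.10 (unadjusted p = 0.0146, edgeR, not called). Ces2a, a carboxylesterase, stood at 108, 125 and 89.8 CPM against 129, 131 and 208 CPM, with ABHD6 OE 3 highest (0.53 ± 0.23, unadjusted p = 0.0503, edgeR, not called).

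Other genes were taken by their p-values. Resf1, which encodes a retroelement silencing factor, stood at 13.7, 15.7 and 16.5 CPM in GFP livers and at 25.2, 26.1 and 28.8 CPM in ABHD6 OE livers. The groups were clearly apart (log2 fold change 0.81 ± 0.12, adjusted p = 0.017 in DESeq2 and 1.00 in edgeR). Niban2 stood at 15.7, 10.9 and 15.3 CPM in GFP livers and at 6.78, 6.67 and 4.85 CPM in ABHD6 OE livers. These groups were also apart (log2 fold change -1.19 ± 0.22, adjusted p = 0.014 in DESeq2 and 1.00 in edgeR). Cyp4a12b, a fatty acid hydroxylase of male mouse liver, stood at 7.87, 5.05 and 11.9 CPM in GFP livers and at 35.2, 11.7 and 45.1 CPM in ABHD6 OE livers. ABHD6 OE 2 lay below GFP 3, and the log2 fold change was 1.89 ± 0.51 (adjusted p = 0.048 in DESeq2 and 1.00 in edgeR). Cyp4a12b has near-identical neighbours in the genome, so its reads may be shared with them. When GFP 3 and ABHD6 OE 1 were left out, DESeq2 called neither Resf1 (adjusted p = 0.073), Niban2 (adjusted p = 0.13) nor Cyp4a12b.

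The 12 protein-coding genes with the smallest p in the higher direction, with groups apart, ran in log2 fold change from 0.36 to 2.04. After Hamp, Abhd6 and Resf1 they were Rnf5, a ubiquitin ligase of the endoplasmic reticulum (0.55), Slc25a51, the mitochondrial NAD carrier (0.55), Usp31 (0.72), Cxcl9, an interferon-induced chemokine (0.71), Ahctf1, a nucleoporin (0.53), Noct (0.96), Slc38a2, a neutral amino acid transporter (0.48), and the chaperones Dnajb4 (0.36) and Hsph1 (0.58). None of these 12 passed the adjusted threshold in edgeR on the 6 livers. Noct, a phosphatase of NADP(H) with a daily rhythm, stood at 31.6, 30.2 and 36.8 CPM in GFP livers and at 39.3, 80.2 and 72.0 CPM in ABHD6 OE livers. ABHD6 OE 1 was close to GFP 3, and without both the log2 fold change was 1.3 (adjusted p = 1.09e-07 in DESeq2 and 0.0927 in edgeR).

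In the lower direction these genes included, besides Niban2, Hmgcs1, Mvd, Fdps and Hlcs, the arginine sensor Castor1 (-1.20), Dock6 (-0.47), Pstpip2 (-0.96), the scaffold protein Shank2 (-0.78), the sialyltransferase St6gal1 (-0.54) and the kinase Camk1d (-0.66). St6gal1 stood at 154, 146 and 177 CPM in GFP livers and at 117, 112 and 100.1 CPM in ABHD6 OE livers. The groups did not overlap (log2 fold change -0.54 ± 0.13, unadjusted p = 0.00423, edgeR, not called). Dock6 overlaps Angptl8, which encodes a feeding-induced inhibitor of lipoprotein lipase, on the opposite strand, and Angptl8 stood at 69.2, 38.3 and 61.3 CPM in GFP livers and 36.4, 31.6 and 19.4 CPM in ABHD6 OE livers. Hamp, Hmgcs1, Irs2 and Col4a2 also overlap an annotated gene on the opposite strand. So do Resf1, Niban2, Cyp4a12b, Rnf5, Usp31, Ahctf1, Pstpip2, Hlcs, Shank2, St6gal1, Camk1d and Hsd3b5, and this list may not be complete. Counts of all these genes may hold reads of the overlapping gene. For Dock6 and Angptl8 the groups did not overlap, and since the counting is not stated to use strand their reads cannot be told apart (Angptl8 log2 fold change -0.95 ± 0.29, unadjusted p = 0.0128, edgeR, not called).

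Of the transcripts of antibody-secreting cells, Igha, Igkc and Jchain were lower in the overexpressing livers without overlap. All 4 tested plasma cell genes had a negative log2 fold change, with a median of -1.39, and these 3 lay below every GFP liver (75.0%, background 3.53%). The groups overlapped for Ighm, the heavy chain of immunoglobulin M (log2 fold change -0.65), where ABHD6 OE 3 lay above GFP 3. Mzb1, also on the list, was too low to be tested. None of the 4 was called in edgeR over all livers. Igha, the heavy chain of immunoglobulin A, stood at 19.6, 17.5 and 2.74 CPM in GFP livers and at 0.931, 1.97 and 1.71 CPM in ABHD6 OE livers. GFP 3 was near the overexpressing livers and far from GFP 1 and 2 (log2 fold change -3.11 ± 0.72, adjusted p = 0.0011 in DESeq2 and 1.00 in edgeR). Without GFP 3 and ABHD6 OE 1 the log2 fold change was -3.33, with an adjusted p of 0.0189 in edgeR, and Igha was the 1 gene called there.

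Igkc, the kappa light chain, stood at 10.5, 12.7 and 9.78 CPM in GFP livers and at 3.59, 5.83 and 4.13 CPM in ABHD6 OE livers. Its groups were apart with GFP 3 beside the other GFP livers (log2 fold change -1.28 ± 0.24, adjusted p = 0.014 in DESeq2, not called in edgeR). DESeq2 did not call Igkc without GFP 3 and ABHD6 OE 1 (adjusted p = 0.15). Jchain, the joining chain, stood at 4.54, 3.39 and 1.98 CPM against 0.731, 1.48 and 1.28 CPM (log2 fold change -1.51 ± 0.42, unadjusted p = 0.00884, edgeR, not called). Fewer cells of a type and less RNA per cell cannot be told apart in bulk tissue. The summed plasma cell markers stood at 45.5, 50.02 and 20.3 CPM of the library total in GFP livers and at 9.26, 18.4 and 14.9 in ABHD6 OE livers.

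The summed markers of other cell types overlapped between groups. Summed Kupffer cell markers ran from 147 to 229 in GFP livers and from 114 to 279.8 in ABHD6 OE livers. Summed markers of monocyte-derived macrophages ran from 15.3 to 23.2 and from 9.60 to 32.8. Summed stellate cell and fibroblast markers ran from 100.5 to 370.1 and from 196 to 385, lowest in GFP 3. Sinusoidal endothelial markers ran from 125 to 186 and from 136 to 159.9, cholangiocyte markers from 47.9 to 73.2 and from 45.0 to 55.3, erythroid markers from 149.8 to 176 and from 133 to 227, and neutrophil markers from 4.43 to 6.91 and from 2.76 to 6.01. B cell markers ran from 1.05 to 2.96 and from 1.26 to 4.59, and mesothelial markers from 1.92 to 4.50 and from 2.25 to 5.41. All of these are CPM of the library total. T and NK cell markers were too low to be tested, at 0.310 to 1.66 in all. The adipocyte genes Lep, Plin1 and Retn, the acinar genes Prss1, Cpa1 and Cel, and the muscle genes Acta1, Ckm and Myh4 had 0 counts in every liver. Other members of these lists were present. Cela1 of the acinar list had 124 to 424 counts in every liver, Mylpf of the muscle list 3 to 10 counts, and Adipoq of the adipocyte list 0 to 2 counts. Cfd of the adipocyte list had 97, 63 and 0 counts in GFP livers and 15, 156 and 90 counts in ABHD6 OE livers.

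Interferon-response genes had a median log2 fold change of 0.04 over 37 genes, and 5 lay above every GFP liver (13.5%, background 3.22%). Cxcl9 stood at 8.84, 7.03 and 6.09 CPM in GFP livers and at 11.0, 12.3 and 12.8 CPM in ABHD6 OE livers. The others were the GTPases Igtp (0.33 ± 0.12), Gbp2 (0.75 ± 0.29), Gbp3 (0.38 ± 0.17) and Gbp7 (0.27 ± 0.16), none of them called. Gbp7 was named after its values were seen. Of 17 heat shock and immediate early genes, 3 lay above every GFP liver (17.6%), among them Hsph1 at 38.5, 36.8 and 45.0 CPM against 73.6, 56.3 and 50.3 CPM. Dnaja1, another co-chaperone, had a log2 fold change of 0.28 ± 0.14 (unadjusted p = 0.0813, edgeR, not called).

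Of 18 clock genes, 1 was higher and 1 lower at an unadjusted p under 0.05 in edgeR (background 0.906% and 1.26%), with a median of 0.09. Above and below every GFP liver lay 1 gene each (5.56% each way, background 3.22% and 3.53%). Cry1, a repressor of the clock, stood at 4.91, 6.71 and 3.49 CPM in GFP livers and at 7.58, 10.5 and 14.1 CPM in ABHD6 OE livers. All overexpressing livers lay above the GFP livers (log2 fold change 1.09 ± 0.32, unadjusted p = 0.0106, edgeR, not called). Bhlhe41, another repressor, stood at 5.69, 5.24 and 4.44 CPM against 3.59, 3.44 and 2.64 CPM (-0.67 ± 0.23, unadjusted p = 0.0241, edgeR, not called). Nr1d1, the nuclear receptor REV-ERB alpha, stood at 147, 147 and 59.4 CPM in GFP livers and at 102, 87.5 and 66.8 CPM in ABHD6 OE livers. GFP 3 was the lowest of the 6, and the log2 fold change was -0.46 ± 0.35 (not called). Leaving out GFP 3 and ABHD6 OE 1 gave -0.93 (adjusted p = 0.00103 in DESeq2 and 0.48 in edgeR). The hour at which livers were taken is not given in the sources used here.

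The widest differences among the 6 livers did not follow the groups. In 1112 of 13910 genes (7.99%) the highest and lowest livers differed by 4-fold or more on the log2 CPM scale, while 94 genes (0.676%) had a fitted 2-fold or larger difference between groups in the higher and 127 (0.913%) in the lower direction. Among abundant protein-coding genes the 12 widest were Mup17, Mup15, Mup12, Mup7, Mup14, Mup16 and Mup11, the acute phase genes Saa2 and Lcn2, the cytochromes Cyp2b9 and Cyp4a14, and Hsd3b5. Saa2, a serum amyloid A, stood at 33.5, 21.0 and 5590 CPM in GFP livers and at 1195, 53.5 and 15.8 CPM in ABHD6 OE livers. It was high in GFP 3 and ABHD6 OE 1 and low in the other 4, and its log2 fold change turned from -2.16 to 0.35 without these 2 livers. Lcn2, the siderophore-binding lipocalin, stood at 16.4, 8.82 and 1091 CPM and at 210.5, 20.1 and 4.63 CPM, in the same pattern.

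Over the 33 acute phase genes the median log2 fold change was -0.37, and it was 0.05 without GFP 3 and ABHD6 OE 1, with 9 positive and 24 negative over all 6 livers. Fga, the fibrinogen alpha chain, stood at 2686, 2987 and 13266 CPM in GFP livers and at 7949, 2525 and 2962 CPM in ABHD6 OE livers. Hp, haptoglobin, stood at 2706, 2281 and 12489 CPM and at 6409, 2840 and 2318 CPM. Stat3, which relays interleukin-6, stood at 102, 106 and 226 CPM and at 231, 99.2 and 110.4 CPM. All 3 were high in the same livers, GFP 3 and ABHD6 OE 1. Not every member of the list did so. Agt, angiotensinogen, ran from 525 to 553 CPM over the 6 livers. Cebpb, a factor that drives acute phase transcription, was the 1 gene of the 33 apart between groups (3.03% above every GFP liver, background 3.22%). It stood at 63.8, 56.3 and 64.8 CPM against 85.3, 73.0 and 105 CPM (log2 fold change 0.51 ± 0.15, unadjusted p = 0.0122, edgeR, not called). Cebpb overlaps Peds1 on the opposite strand.

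Major urinary proteins, pheromone carriers that male liver makes under pulses of growth hormone, had a pattern of their own. Mup12 stood at 94.9, 1.47 and 6040 CPM in GFP livers and at 8236, 4.85 and 1734 CPM in ABHD6 OE livers. Mup7 stood at 233, 10.3 and 6256 CPM and at 7851, 13.7 and 2246 CPM. Hsd3b5, a steroid dehydrogenase of male liver, stood at 20.7, 1.92 and 456 CPM and at 333, 6.11 and 126 CPM. ABHD6 OE 3 was high for these genes and low for Saa2, so it stood with GFP 3 and ABHD6 OE 1 here and with the other livers there. Leaving out GFP 3 and ABHD6 OE 1 turned the log2 fold change from -0.42 to 4.2 for Mup17 and from -0.04 to 2.55 for Hsd3b5. The Mup genes, Saa1 with Saa2, and Orm1 with Orm2 are near-identical copies, so their separate values are uncertain.

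Transcripts of the Y chromosome were present in all 6 livers (Ddx3y 64.4 to 83.8 CPM), and Xist ran from 0 to 0.728 CPM of the library total. The sex and growth hormone list of 31 tested genes had a mean of -0.21, -1.35 and 0.73 in GFP livers and 1.06, -0.87 and 0.64 in ABHD6 OE livers. Its median log2 fold change was 0.16 over all livers and 0.50 without GFP 3 and ABHD6 OE 1.

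**Figure D4:**
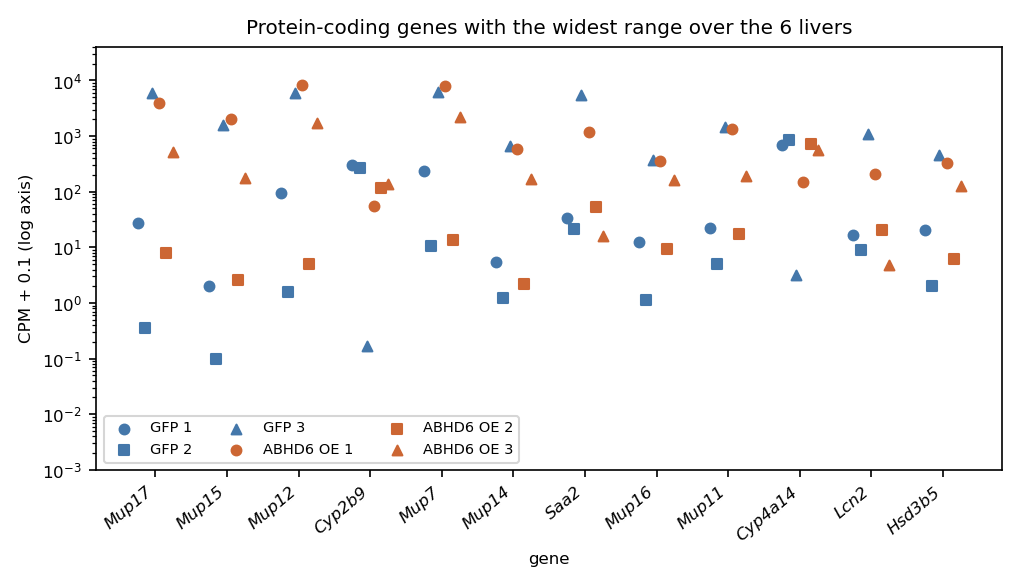
CPM + 0.1 on a log axis (vertical) of the 12 abundant protein-coding genes with the widest range over the 6 livers (horizontal), blue for GFP and orange for ABHD6 OE, with a symbol for each replicate. Triangles of GFP 3 and circles of ABHD6 OE 1 lie at the top for Mup genes, Saa2, Lcn2 and Hsd3b5 and at the bottom for Cyp2b9 and Cyp4a14.

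Genes of lipid use and drug metabolism had the reverse pattern among livers. Cyp4a14, a fatty acid hydroxylase and target of PPARalpha, stood at 700.0, 839.9 and 3.15 CPM in GFP livers and at 150.4, 726 and 564 CPM in ABHD6 OE livers. Cyp2b9, also a cytochrome, stood at 304, 267 and 0.0684 CPM and at 54.6, 119 and 137 CPM. GFP 3 was the lowest and ABHD6 OE 1 the next lowest for both. Without these 2 livers Cyp2b9 was lower in the overexpressing livers (log2 fold change -1.16, adjusted p = 7.62e-08 in DESeq2 and 0.22 in edgeR). Over all 6 livers edgeR gave -0.88 and limma-voom 2.12, neither called. The Cyp2b9 value of GFP 3 is that of a single read. Cidec and Plin4, coat proteins of lipid droplets, stood in GFP 3 at 3.15 and 4.24 CPM and in ABHD6 OE 1 at 4.72 and 12.6 CPM, against ranges over the other 4 livers of 18.4 to 96.3 CPM and 25.3 to 97.7 CPM. These 2 genes were named after their values were seen.

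The 30 genes of fatty acid oxidation and PPARalpha had means of 0.49, 0.23 and -1.42 in GFP livers and -0.26, 0.41 and 0.56 in ABHD6 OE livers. Over all livers 28 of them had a positive log2 fold change, with a median of 0.18, and 0 had groups apart in either direction. Without GFP 3 and ABHD6 OE 1 the median was 0.06. Acot1, an acyl-CoA thioesterase, stood at 25.5, 21.8 and 2.46 CPM and at 9.31, 51.9 and 61.6 CPM. Within the 4 livers left, it was higher in the overexpressing ones (1.26, adjusted p = 1.34e-05 in DESeq2 and 0.19 in edgeR). Angptl4, a secreted lipase inhibitor, had a log2 fold change of 0.75 ± 0.42 (unadjusted p = 0.117, edgeR, not called) with overlap. The 30 genes of xenobiotic metabolism had means of 0.49, 0.49 and -1.28 in GFP livers and -0.54, 0.61 and 0.23 in ABHD6 OE livers, with a median log2 fold change of 0.16, 0.07 without GFP 3 and ABHD6 OE 1, and 0 with groups apart.

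Of the 24 lipid droplet and lipolysis genes, 10 were positive and 14 negative, with a median of -0.03. Cidea, a lipid droplet fusion protein, stood at 25.4, 2.36 and 0.0684 CPM in GFP livers and at 0.0665, 1.26 and 0.356 CPM in ABHD6 OE livers. The groups overlapped and GFP 1 alone was high (log2 fold change -4.04 ± 1.65, unadjusted p = 0.0436, edgeR, not called). The values of GFP 3 and ABHD6 OE 1 are those of a single read. Plin3, a droplet coat protein, had a log2 fold change of -0.42 ± 0.18 (unadjusted p = 0.0574, edgeR, not called), with overlap.

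**Figure D5:**
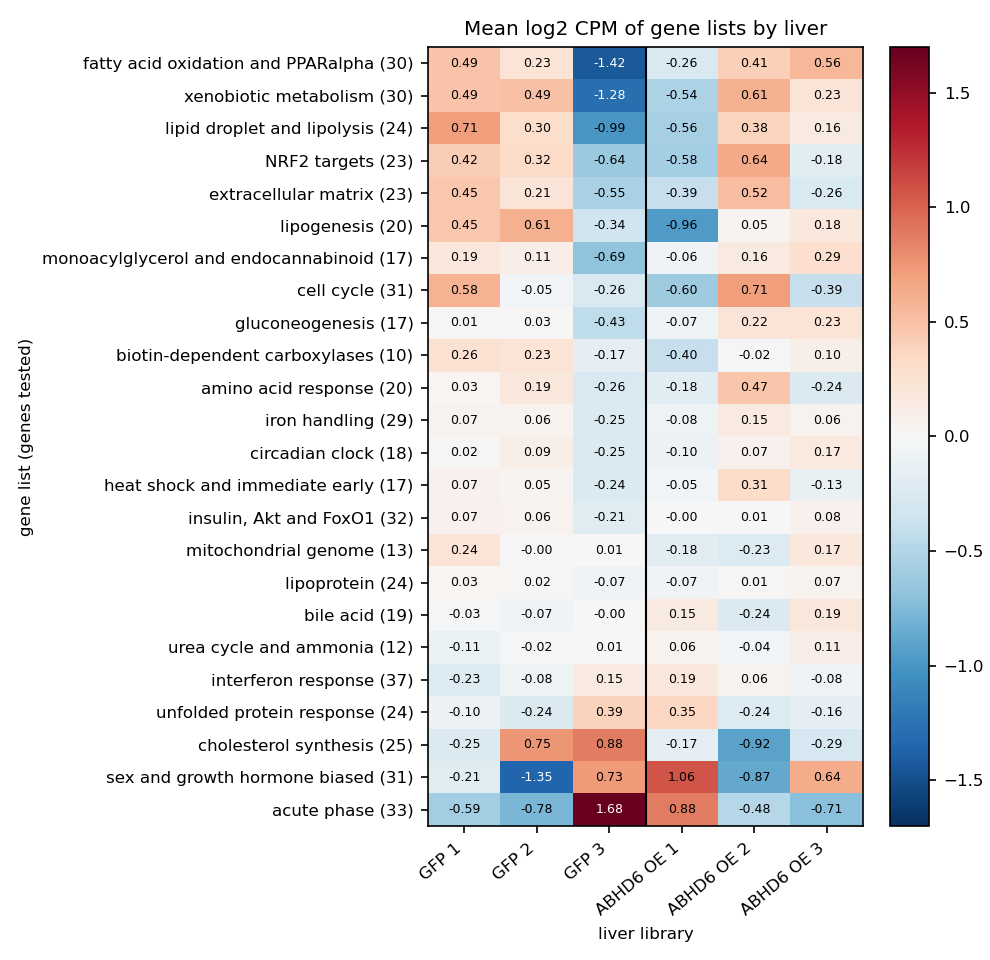
Mean log2 CPM of 24 gene lists (rows, with genes tested) in each liver (columns), minus the mean of the 6 livers. GFP 3 and ABHD6 OE 1 share high acute phase values (1.68 and 0.88) and low fatty acid oxidation and xenobiotic values. The sterol list runs from 0.88 in GFP 3 to -0.92 in ABHD6 OE 2.

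Other pathways gave few separated genes. Of 23 extracellular matrix genes, 2 lay below every GFP liver (8.70%, background 3.53%), the basement membrane collagen Col4a2 (-0.37 ± 0.12) and the membrane protease Mmp14 (-0.33 ± 0.13), neither of them called. Nr0b2, the bile acid-responsive repressor SHP, had a log2 fold change of -0.53 ± 0.22 (unadjusted p = 0.0452, edgeR, not called) with overlap. Cyp7a1, the rate-limiting enzyme of bile acid synthesis, named after its values were seen, stood at 53.6, 89.2 and 216 CPM in GFP livers and at 157, 115 and 162 CPM in ABHD6 OE livers. It was highest in GFP 3 and lowest in the other GFP livers. Without GFP 3 and ABHD6 OE 1 its log2 fold change was 0.95 (adjusted p = 0.0387 in DESeq2 and 0.83 in edgeR). Cth, which makes cysteine, was the 1 gene of 20 in the amino acid response list above every GFP liver (5%, background 3.22%). Its log2 fold change was 0.39 ± 0.13 (unadjusted p = 0.0165, edgeR, not called). The unfolded protein response (24 genes, median -0.05), urea cycle (12 genes, median 0.12) and cell cycle (31 genes, median -0.11) had 0 genes with an unadjusted p under 0.05. Of 23 NRF2 targets, 3 lay below every GFP liver (13.0%, background 3.53%) and 1, Pgd, had an unadjusted p under 0.05, with a median of -0.08 over all livers and -0.21 without GFP 3 and ABHD6 OE 1. Medians were 0.05 for 24 lipoprotein genes, -0.10 for 10 genes of biotin-dependent carboxylation and -0.09 for 13 mitochondrial genes.

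The 47 genes that DESeq2 called without GFP 3 and ABHD6 OE 1, 26 higher and 21 lower, shared 4 with the 10 called over all 6 livers, Abhd6, Hamp, Igha and Mvd. These were 40% of the shorter list and 8.51% of the longer. Besides those named above, the longer list held in the lower direction Me1, the cytosolic malic enzyme (-0.86), the fatty acid elongases Elovl5 (-0.63) and Elovl6 (-0.64), and the water channel Aqp8 (-1.24). In the higher direction it held Por, the electron donor of cytochromes P450 (0.70), and Mup20 (1.1). Over all 6 livers the log2 fold change of Mup20 was 0.32, and GFP 3 was the highest at 2638 CPM. EdgeR called none of these genes on the livers left. They were chosen after their values were seen, and each group then held 2 livers. Me1 stood at 572, 473 and 73.8 CPM in GFP livers and at 122, 291 and 284 CPM in ABHD6 OE livers. The 2 livers left out were the lowest of the 6, and with them the log2 fold change of -0.68 ± 0.69 was smaller than its SE.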

How the data were processed

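Poly-A RNA from mouse liver was sequenced. The authors deposited raw counts per gene, not normalized. HISAT2, DESeq2 and build mm39 are listed in the submitters' processing notes. The counter, annotation release and strandedness are not given in the sources used here. Library totals were 13303141 to 16234658. The 6 liver columns were analysed with edgeR 4.0.16 in R 4.3.3 (filterByExpr, TMM, quasi-likelihood F test, Benjamini-Hochberg adjustment, threshold 0.05). CPM uses TMM library sizes, log2 CPM a prior count of 2, and an SE is the log2 fold change divided by the root of F. DESeq2 1.42.0, limma-voom 3.58.1, other scalings and filters, all 12 libraries, a replicate block and leaving out livers were alternatives. Removing GFP 3 and ABHD6 OE 1 together and an acute phase covariate were added after the data were seen.

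The 40 gene lists and the comparison were chosen with earlier results of these data known. Genes were named by rule: Abhd6, Hamp, genes called by DESeq2, in each direction the 12 protein-coding genes of smallest p with groups apart and a mean log2 CPM of at least 1, the 12 widest with a mean of at least 4, up to 4 leading genes of a described list, acute phase genes, Foxo1, Akt1 and Akt2. Any other gene is stated to have been named later. For some genes of the rule no values are reported here. Promoter windows came from RefSeq (GRCm38.p6), joined by symbol, and figures from matplotlib.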

Additional observations from a re-analysis of the deposited data

How the results depend on the processing

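The count of 0 genes called by edgeR stayed at 0 with RLE scaling, a filter of 1 CPM in every library, limma-voom, the replicate block and without each replicate in turn (0 to 0). It became 2 with no filter on low counts, 10 with DESeq2, 4 with all 12 libraries in the fit, 1 without GFP 3 and ABHD6 OE 1, 3 with the acute phase covariate and 47 with DESeq2 without both livers. Genes at an unadjusted p under 0.05 numbered 301, between 252 and 698 without each replicate in turn, the 698 without GFP 3. Abhd6 passed the threshold with no filter (2.05, adjusted p = 0.0237), DESeq2 (2.04), all 12 libraries (2.04, adjusted p = 0.0113) and DESeq2 without both livers (1.64), and ran from 1.83 to 2.24 without each replicate. Hamp passed with no filter (1.45, adjusted p = 0.0441), DESeq2 (1.45), all 12 libraries (1.44, adjusted p = 0.0452), the acute phase covariate (1.47, adjusted p = 0.0197) and DESeq2 without both livers (1.57). Of 110 genes followed under the alternatives, 83 kept their sign in each one run and 27 reversed in at least 1, among them 7 Mup genes, Saa2 and Saa3. Without both livers Akt1 reversed to 0.13, Akt2 to 0.023, Saa3 to 0.51, Saa2 to 0.35, Hp to 0.052, Mup17 to 4.2 and Hsd3b5 to 2.55. With the covariate Akt1 reversed to 0.0050, Cyp2b9 to 0.43, Cyp4a14 to 1.13, Hsd3b5 to 2.18, Mup17 to 3.83, Saa2 to 0.11 and Plin4 to 9.3e-05. With limma-voom Cyp2b9 reversed to 2.12, Cyp4a14 to 1.73, Hsd3b5 to 1.3, Mup17 to 2.8 and Plin4 to 0.079. With the replicate block Cyp4a14 reversed to 0.51, Hsd3b5 to 1.36, Lcn2 to 0.55, Mup17 to 3.95, Plin4 to 0.12 and Saa2 to 1.03. Without each replicate in turn the ranges crossed 0 for Agt (-0.0047 to 0.027), Akt1 (-0.32 to 0.27), Akt2 (-0.18 to 0.074), Cidec (-1.68 to 1.34), Cyp4a14 (-0.68 to 0.45), Cyp7a1 (-0.079 to 1.02), Fga (-1.21 to 0.66), Foxo1 (-0.049 to 0.26), Hp (-1.18 to 0.63), Hsd3b5 (-1.27 to 3.78), Id1 (-0.15 to 0.58), Lcn2 (-4.92 to 2.64), Mup11 (-2.28 to 5.28), Mup12 (-1.24 to 6.11), Mup14 (-1.38 to 6.23), Mup15 (-2.54 to 9.56), Mup16 (-0.54 to 4.70), Mup17 (-2.98 to 6.74), Mup7 (-0.95 to 4.8), Orm3 (-2.15 to 0.42), Plin4 (-1.47 to 0.24), Saa2 (-5.77 to 3.95), Saa3 (-2.29 to 1.13), Smad7 (-0.35 to 0.18), Srebf1 (-0.046 to 0.13) and Stat3 (-0.47 to 0.50). The sign turned without GFP 3 alone for Akt1, Akt2, Fga, Hp, Lcn2, Orm3, Saa2 and Saa3, without ABHD6 OE 1 alone for Mup7 and Mup12, without GFP 1 alone for Agt and Cyp7a1 and without ABHD6 OE 3 alone for Foxo1. It turned without GFP 1, GFP 2 or ABHD6 OE 1 for Mup11, Mup14, Mup15, Mup16, Cyp4a14 and Stat3, with ABHD6 OE 3 too for Plin4, and without GFP 1 or ABHD6 OE 1 for Smad7. It turned without GFP 3 or ABHD6 OE 2 for Id1 and Mup17, with ABHD6 OE 3 too for Hsd3b5 and GFP 2 too for Cidec, and without GFP 1, GFP 2 or ABHD6 OE 3 for Srebf1. The cause of these changes was not tested. Equal replicate numbers did not pair the livers (correlations of deviations -0.42, 0.44 and -0.13), and with the number as a block 209 genes had an unadjusted p under 0.05, 0 were called, and Abhd6 and Hamp had log2 fold changes of 2.05 and 1.46. Igha had 324, 274 and 40 counts in GFP livers and 14, 28 and 24 in ABHD6 OE livers, so the spread between the GFP livers limits its difference, and the same holds for Cidea.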
